A study of Caenorhabditis elegans with 2 samples.

Results

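The genes of the small ribosomal subunit of Caenorhabditis elegans were examined for peaks of a CEH-40 fusion protein, mapped by chromatin immunoprecipitation and sequencing (ChIP-seq). The set held every protein-coding gene whose symbol starts with rps- in the Ensembl WBcel235 annotation, and ubl-1. It came to 32 genes of 19985 protein-coding genes, and the other 19953 served as the background. The members were found by gene symbol, and the set itself was picked for description with earlier results of these peaks known. The single group was strain OP232, collected as young adults at 76 h, after synchronisation by bleaching and starvation of L1 larvae. Its insertion, wgIs232, holds ceh-40 joined to TY1, EGFP and FLAG tags and a copy of unc-119, in animals with the allele unc-119(ed3). Chromatin of whole animals was sonicated and precipitated with an antibody against GFP, in 2 biological replicates. The protein was expressed from a transgene and all tissues were mixed, so a peak cannot be given to a cell type, and peak lists hold no expression values with which to check the tissue. There was no second genotype, stage or treatment, and control libraries were not analysed here, so no test between groups was made and every value below is a description.

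The small subunit, or 40S subunit, binds the messenger RNA, holds the decoding centre where codon and anticodon meet, and joins the large subunit at the start codon. Its proteins sit on the 18S ribosomal RNA in a head, which carries the tRNA passage and the mRNA entry side, and a body with a platform, which carries the decoding centre and the mRNA exit side. Ribosomal protein genes are short and highly expressed in growing and egg-producing worms. Many of their transcripts receive the SL1 leader by trans-splicing, which joins the leader at an acceptor that resembles TTTCAG, so the annotated 5′ end of such a gene is often an acceptor site rather than the place where transcription begins. Several ribosomal protein genes also hold small nucleolar RNA (snoRNA) genes in their introns, which guide modification of ribosomal RNA. CEH-40 is a homeodomain protein of the PBC class, whose members bind DNA together with Hox proteins.

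Bases before annotated starts are shown first, since distances below are counted from those starts. Each sequence is the run of 30 bases before an annotated start, 5′ to 3′ on the gene strand, read from the RefSeq genome of WBcel235 (ce11), with the last 6 bases in capitals. They were chosen for members whose peaks are described below, among them rps-18, the member of lowest signal, and ubl-1, which also had a low signal.
rps-23, chrIV:12391054-12391083, minus strand: ttgtccttgtaatttacatttttaTTCTAG
rps-1, chrIII:4475888-4475917, plus strand: tactgttaaattatgtattcctatTTTCAG
rps-5, chrIV:11111046-11111075, minus strand: ttaaactatactgaagttgttattTTGCAG
rps-13, chrIII:6374998-6375027, minus strand: taaactcgacattttatcatcttcTTTCAG
rps-25, chrIV:5947606-5947635, minus strand: ttttccttctcatatgaattgtctTTACAG
rps-8, chrIV:7313861-7313890, minus strand: tcatttttgttaaatgtgaaacgtTTTCAG
rps-18, chrIV:14825649-14825678, plus strand: gtgcatctcactaaattttttattTTTCAG
ubl-1, chrIII:3068287-3068316, plus strand: tttctctcaatttattgttgttttTTGCAG
All 32 members had AG directly before at least 1 annotated start, against 36.3% of the other protein-coding genes on the nuclear chromosomes. The full hexamer TTTCAG stood there in 18 of the 32 members and in 16.7% of the others. Members with and without a peak nearby had the AG.

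The next runs give 200 bases around the strongest summit of 5 members on the gene strand, from the same RefSeq genome, chosen to show a summit upstream of a gene (rps-23 and rps-1), in coding sequence (rps-5), in an intron (rps-13) and past the gene's end (rps-25). Capitals mark matches to the searched motifs in rps-23 (TTTCAG), rps-1 (GAGAGA on both strands and the reverse complement of TTTCAG) and rps-25 (2 matches to TTTCAG). In rps-5 they mark the coding sequence of rps-5, and in rps-13 the snoRNA gene C16A3.11.
rps-23, chrIV:12391237-12391436, minus strand: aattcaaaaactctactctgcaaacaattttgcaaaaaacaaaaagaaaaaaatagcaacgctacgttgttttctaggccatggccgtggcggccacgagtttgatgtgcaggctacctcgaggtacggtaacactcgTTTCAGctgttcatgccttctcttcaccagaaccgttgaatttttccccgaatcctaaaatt
rps-1, chrIII:4475534-4475733, plus strand: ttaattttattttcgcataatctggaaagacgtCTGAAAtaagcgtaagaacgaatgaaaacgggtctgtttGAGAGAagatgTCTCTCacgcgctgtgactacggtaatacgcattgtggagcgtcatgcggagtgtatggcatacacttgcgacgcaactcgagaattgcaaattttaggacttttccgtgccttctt
rps-5, chrIV:11110741-11110940, minus strand: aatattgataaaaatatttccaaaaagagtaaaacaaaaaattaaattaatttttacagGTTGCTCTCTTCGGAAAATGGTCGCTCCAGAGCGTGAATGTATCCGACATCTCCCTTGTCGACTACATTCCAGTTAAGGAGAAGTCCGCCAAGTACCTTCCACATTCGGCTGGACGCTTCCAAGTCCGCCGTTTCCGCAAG
rps-13, chrIII:6374381-6374580, minus strand: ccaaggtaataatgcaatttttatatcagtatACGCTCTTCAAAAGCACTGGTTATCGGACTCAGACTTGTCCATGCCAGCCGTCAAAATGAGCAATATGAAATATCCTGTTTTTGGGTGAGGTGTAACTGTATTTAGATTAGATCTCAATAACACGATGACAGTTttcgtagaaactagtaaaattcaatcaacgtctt
rps-25, chrIV:5946870-5947069, minus strand: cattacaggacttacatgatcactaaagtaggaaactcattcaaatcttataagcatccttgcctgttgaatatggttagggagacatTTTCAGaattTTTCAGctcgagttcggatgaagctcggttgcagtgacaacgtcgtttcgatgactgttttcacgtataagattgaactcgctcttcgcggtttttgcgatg
The summit is base 101 of the rps-1 run and base 100 of the other runs.

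Peaks lay within 1 kb of many of these genes. The authors' pooled list was made from both replicates and ended at an irreproducible discovery rate (IDR) of 0.01. The IDR is low where matched peaks rank both high and alike in a pair of sets. This pooled list held 867 peaks, of which 840 were on the nuclear chromosomes. A gene was called when the summit of such a peak, its highest point, was within 1 kb of any of its annotated starts. This was so for 14 of 32 members (43.8%, Wilson 95% interval 28.2% to 60.7%), against 536 of the 19953 other genes (2.69%). The called members were rps-1, rps-5, rps-6, rps-7, rps-8, rps-10, rps-13, rps-14, rps-16, rps-20, rps-23, rps-24, rps-25 and rps-26. The conservative list, of 713 peaks, called 13 members (40.6%) and 2.19% of the other genes, and 12 members were in both of these lists. It left out rps-7 and rps-14 and added rps-22. The count of 14 depended on the window, the IDR limit and the assignment. It was 9 within 500 bp (1.59% of other genes), 2 within 200 bp (0.722%) and 4 at an IDR of at most 0.001 (0.642%). It was 6 (1.36%) when each summit was given only to the gene with the nearest start, a setting added with the data in view.

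The list of each replicate was shorter and called fewer genes. Replicate 1, with 296 peaks, called 5 members (15.6%, 6.86% to 31.8%) and 0.892% of the other genes. Replicate 2, with 287 peaks, called 7 members (21.9%, 11.0% to 38.8%) and 0.862% of the others. Of the members, rps-6 and rps-23 were called in both of these lists, rps-1, rps-5 and rps-10 in that of replicate 1, and rps-8, rps-13, rps-20, rps-24 and rps-26 in that of replicate 2. The remaining 4 called members, rps-7, rps-14, rps-16 and rps-25, were in neither. The lists give no read counts, so the depth of each library is unknown, and the intervals cover counting error only. Neighbouring genes can share a peak and are not independent.

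**Figure D1:**
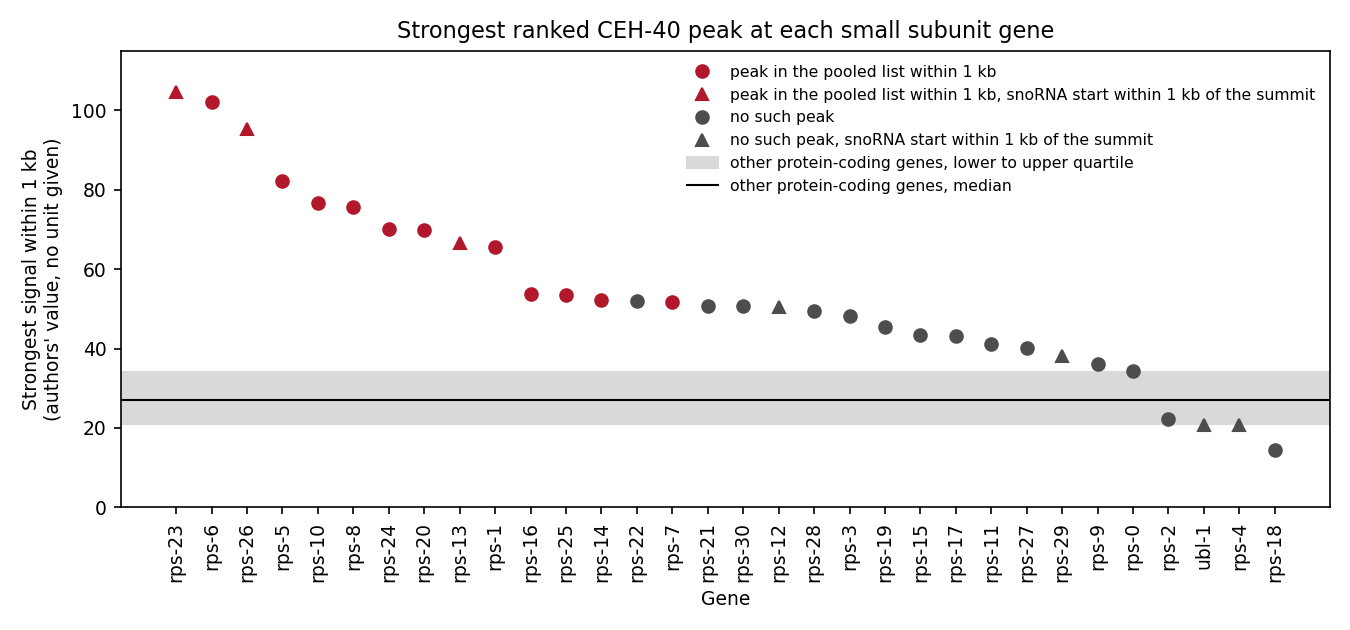
Strongest signal of any ranked peak with a summit within 1 kb of a start (y axis, the authors' value with no stated unit) for each of the 32 small subunit genes (x axis, sorted). Red points have a peak in the pooled list, triangles have a snoRNA start within 1 kb of the summit, and the grey band and line give the quartiles and the median of the other protein-coding genes; 28 of 32 members lie above the upper quartile of the others, 34.1.

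Signals before any threshold were above those of most other genes at 28 of the 32 members. The pooled ranked list holds 103201 peaks before any threshold, and a ranked summit lay within 1 kb of 32 of 32 members and of 85.2% of the other genes. The authors' signal value, given without a unit and taken here to order peaks in 1 list at a time, had a median over members of 50.8 for the strongest such peak, with a range from 14.4 at rps-18 to 104.6 at rps-23. Over the other genes with a ranked peak the median was 27.1, the quartiles were 21.03 and 34.1, and the 95th percentile was 49.6. Above that percentile were 18 members. Called members ranged from 51.7 to 104.6 and uncalled members from 14.4 to 51.9, so called and uncalled members overlapped at rps-7 and rps-22.

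In the head of the subunit, 5 of 14 members were called (35.7%, 16.3% to 61.2%). The strongest was rps-5, whose protein lies by the tRNA exit site. Its peak, chrIV:11110721-11110960, had a pooled signal of 82.3, with 41.3 in replicate 1 and 42.6 in replicate 2, and its summit was in coding sequence 204 bp inside the gene. The replicates were close here, and no other gene had a nearer start. Next came rps-10, a protein of the mRNA entry side, with a peak at chrI:4583855-4584094 of signal 76.6, of 42.9 in replicate 1 and 28.9 in replicate 2. That summit was also in coding sequence, 530 bp in, but the start of tmem-39 was closer, at 165 bp. The peak of rps-20, chrI:14469212-14469451, had a signal of 69.9. It had 22.7 in replicate 1 and 48.6 in replicate 2, the least even pair among the peaks of called members in the pooled list, and lay 229 bp upstream of rps-20 and 168 bp upstream of ekl-4.

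The other called head genes were weaker. For rps-16, whose protein reaches with its tail to the tRNA in the peptidyl site, there were 2 peaks. That at chrV:15000341-15000580 had a signal of 53.7, with 29.8 in replicate 1 and 30.4 in replicate 2, and a summit in coding sequence 80 bp from the start. The second, chrV:14999806-15000045, had 52.7, with 30.2 in replicate 1 and 23.5 in replicate 2, and lay 92 bp past the end of rps-16 and inside T01C3.11. The peak of rps-25, a protein known for its part in initiation at viral internal entry sites, was at chrIV:5946850-5947089 with a signal of 53.4, with 29.9 in replicate 1 and 29.0 in replicate 2. It lay 123 bp past the end of the gene, nearer to the start of inx-7 at 332 bp. The strongest peaks of both genes had close values in the replicates, and neither gene was in a replicate's own list.

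In the body, 9 of 18 members were called (50%, 29.0% to 71.0%), an interval that overlaps that of the head. The median ranked signal was 51.8 in the body and 48.8 in the head. The strongest of all members was rps-23, whose protein contacts the decoding centre. Its peak at chrIV:12391312-12391371 had a signal of 104.6, with 45.5 in replicate 1 and 59.9 in replicate 2, and ranked 100 among the 840 nuclear peaks. The summit was 284 bp upstream of rps-23 and 250 bp upstream of dpm-3, and the snoRNA gene F28D1.13 began 682 bp away. Close behind was rps-6, whose protein is the substrate of S6 kinase. Its peak, chrI:13953179-13953418, had 102.1, with 56.9 in replicate 1 and 41.0 in replicate 2, and lay 96 bp past the end of the gene, 763 bp from the inner of its 2 annotated starts, with no other gene's start within 1 kb. These were the members called in both replicate lists.

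The peak of rps-26, a protein of the mRNA exit channel, was at chrI:14759411-14759650 and had a signal of 95.4, with 36.04 in replicate 1 and 62.2 in replicate 2. It lay 399 bp upstream of rps-26, but 58 bp from the start of tmem-107 and 119 bp from that of the snoRNA gene F39B2.14. At rps-8 the peak chrIV:7313474-7313713 had 75.6, with 30.6 in replicate 1 and 43.0 in replicate 2. This gene has 2 annotated starts: the summit was in coding sequence inside the gene as annotated from the outer start, and 121 bp upstream of the inner one. With rps-23 and rps-26, rps-8 was higher in replicate 2, whereas rps-6 was higher in replicate 1.

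At rps-24 there was a peak on each side of the gene, and both had a signal of 70.1. The one upstream, chrIV:385439-385678, was 328 bp from the start and had 29.6 in replicate 1 and 47.5 in replicate 2. That past the end, chrIV:386638-386877, was 152 bp beyond the gene, inside T07A9.14, and had 29.9 in replicate 1 and 34.3 in replicate 2. The upstream window was the exception to an otherwise unique set of sequences: 72.8% of its words of 50 bases occurred once in the genome, and in 16 of the 17 windows of 200 bases around members' summits all such words did. How reads that match several places were treated is not given in the sources used here. The longest identical run shared by T07A9.14 and rps-24 was 26 bases. Such a run does not measure likeness short of identity, so whether T07A9.14 holds a diverged copy of rps-24 was not tested. Where the repeated words of the upstream window recur was not examined.

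The peak of rps-1, a protein at the mRNA exit side of the platform, was at chrIII:4475514-4475753 and had a signal of 65.5, with 39.9 in replicate 1 and 29.2 in replicate 2. It lay 284 bp upstream of the gene and inside the noncoding RNA genes F56F3.10 and F56F3.11. At rps-13 the stronger of 2 peaks, chrIII:6374361-6374600, had 66.7, with 30.9 in replicate 1 and 25.5 in replicate 2. Its summit was in an intron and inside the snoRNA gene C16A3.11 (chrIII:6374415-6374548), 67 bp from the start of that gene. The second, chrIII:6373913-6374152, had 61.3, with 28.9 in replicate 1 and 36.3 in replicate 2, and lay 64 bp past the end of rps-13. The first was absent from the conservative list and the second was in it.

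The weakest called body genes were rps-14 and rps-7, and neither was in the conservative list. The peak of rps-14, a platform protein, was at chrIII:7180286-7180525, 818 bp upstream and inside rpl-36, a gene of the large subunit. Its signal was 52.2, with 25.4 in replicate 1 and 26.98 in replicate 2. The peak of rps-7, chrI:10331097-10331336, had 50.9, with 29.3 in replicate 1 and 26.8 in replicate 2, in coding sequence 338 bp inside the gene. A second ranked peak of rps-7 in its UTR had a higher signal of 51.7 but was not in the pooled list. It had 12.5 in replicate 1 and 35.98 in replicate 2, and it is the value of rps-7 in the plots of the strongest ranked peak.

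**Figure D2:**
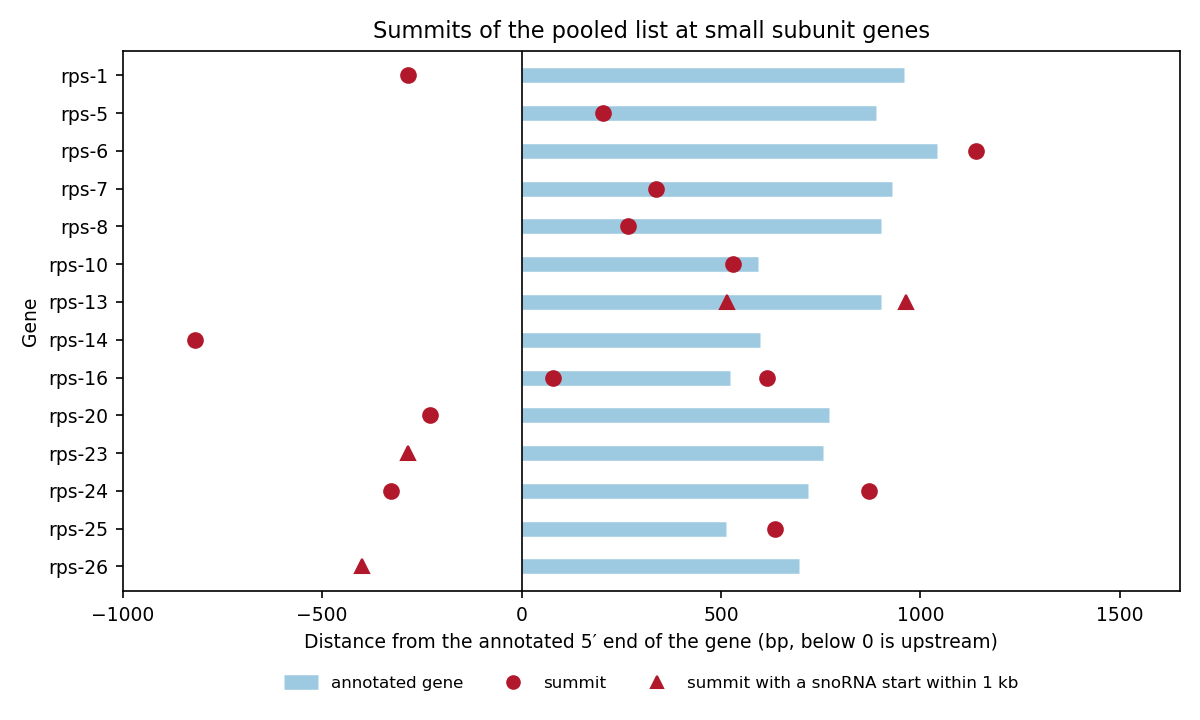
Summits of the pooled list (red) drawn along each of the 14 called genes, aligned at the annotated 5′ end (x axis, bp, with values below 0 upstream); blue bars are the annotated genes and triangles mark summits with a snoRNA start within 1 kb. Of 17 summits, 6 are drawn left of the start, 6 on the gene and 5 past its end.

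Summits lay on both sides of the starts. The 17 summits were all distinct: 6 lay upstream of the member, 6 inside it (5 in coding sequence and 1 in an intron) and 5 past its end. For the strongest summit of each called gene, the shares were 35.7% upstream, 42.9% inside and 21.4% past the end in the 14 members, against 57.6%, 32.6% and 9.70% in the 536 other genes. In the 17 called genes of the large subunit the shares were 23.5% upstream, 29.4% inside and 47.1% past the end, with a median distance to the nearest start of 344 bp. None of these differences was tested. The median distance to the nearest start was 368.5 bp in members and 442 bp in the others, and 2 of the 14 were within 200 bp. With sign, the median was 142 bp downstream of a start over both replicates. For replicate 1 alone it was 246 bp downstream, and for replicate 2 alone it was -242 bp, on the upstream side. Over both replicates, rps-24 was counted at the summit past its end, with a signal of 70.1477, and not at the upstream one, with 70.1471. The sign of the median of 142 bp and the upstream and past-the-end shares of members depended on that choice. Members were short, with a median length of 764 bp (307 bp at rps-28 to 1163 bp at rps-3, and 28 under 1 kb), against 2029 bp in the others, so a window of 1 kb reached past the end of most of them. Another gene's start was closer to 11 of the 17 summits. Giving each summit only to the gene of the nearest start left 6 members called, and 1.36% of the other genes against 2.69%. The members with a summit nearest to their own start were rps-5, rps-6, rps-7, rps-8, rps-16 and rps-24.

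The 5 uncalled members of highest signal had signals close to those of the weakest called ones, but the threshold is on the IDR and not on the signal. The ranked peak of rps-22, in coding sequence, had a signal of 51.9, with 28.8 in replicate 1 and 28.3 in replicate 2. Its −log10 IDR was 1.83 in the pooled ranked list and 2.06 in the ranked list of peaks matched between the replicates, where 2 is the threshold, and it was in the conservative list alone. At rps-21 the signal was 50.8 (25.9 in replicate 1, 22.3 in replicate 2) and the summit 23 bp inside the gene. The signal of rps-30, whose mammalian counterpart is made as a fusion with a ubiquitin-like domain, was 50.7 (30.02 in replicate 1, 22.2 in replicate 2), at 733 bp upstream. At rps-12 it was 50.6 (24.0 in replicate 1, 32.9 in replicate 2), in coding sequence, and the snoRNA gene F54E7.11 began 159 bp away. The signal of rps-28 was 49.5 (21.7 in replicate 1, 28.6 in replicate 2), at 459 bp upstream. The −log10 IDR in the pooled ranked list was 1.90 at rps-28, 1.505 at rps-30, 0.898 at rps-21 and 0.182 at rps-12. In the list matched between the replicates it was 1.55 at rps-28, 1.52 at rps-30, 1.39 at rps-21 and 1.955 at rps-12. The last of these thus lay far from the threshold in the pooled ranked list but close to it in the matched list. In these 5 genes the ratio of replicate 1 to replicate 2 ran from 0.730 at rps-12 to 1.35 at rps-30.

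At rps-3, a protein of the mRNA entry channel, the signal was lower, 48.2, with 33.1 in replicate 1 and 18.95 in replicate 2. Its −log10 IDR of 1.997 in the pooled ranked list was the nearest to the threshold there among the strongest peaks of uncalled members. In the list matched between the replicates it was 1.07. The signals were 45.5 at rps-19, a gene known in humans for Diamond-Blackfan anaemia, 43.4 at rps-15, 43.1 at rps-17, 41.2 at rps-11, 40.1 at rps-27, 38.1 at rps-29, 36.1 at rps-9, a protein of the mRNA entry channel like rps-3, and 34.2 at rps-0. All of these were above the upper quartile of the other genes. The remaining members were below the median of the others. They were rps-2 with 22.2, ubl-1 with 20.8, rps-4 with 20.8 and rps-18 with 14.4. The peak of ubl-1, whose protein is a ubiquitin-like domain fused to a protein of the head, lay 65 bp upstream and had 3.62 in replicate 1 and 7.32 in replicate 2. At rps-18 the matched peak had 12.2 in replicate 1 and 9.30 in replicate 2. Of the other genes with a ranked peak, 6.84% lay below the pooled signal of rps-18.

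**Figure D3:**
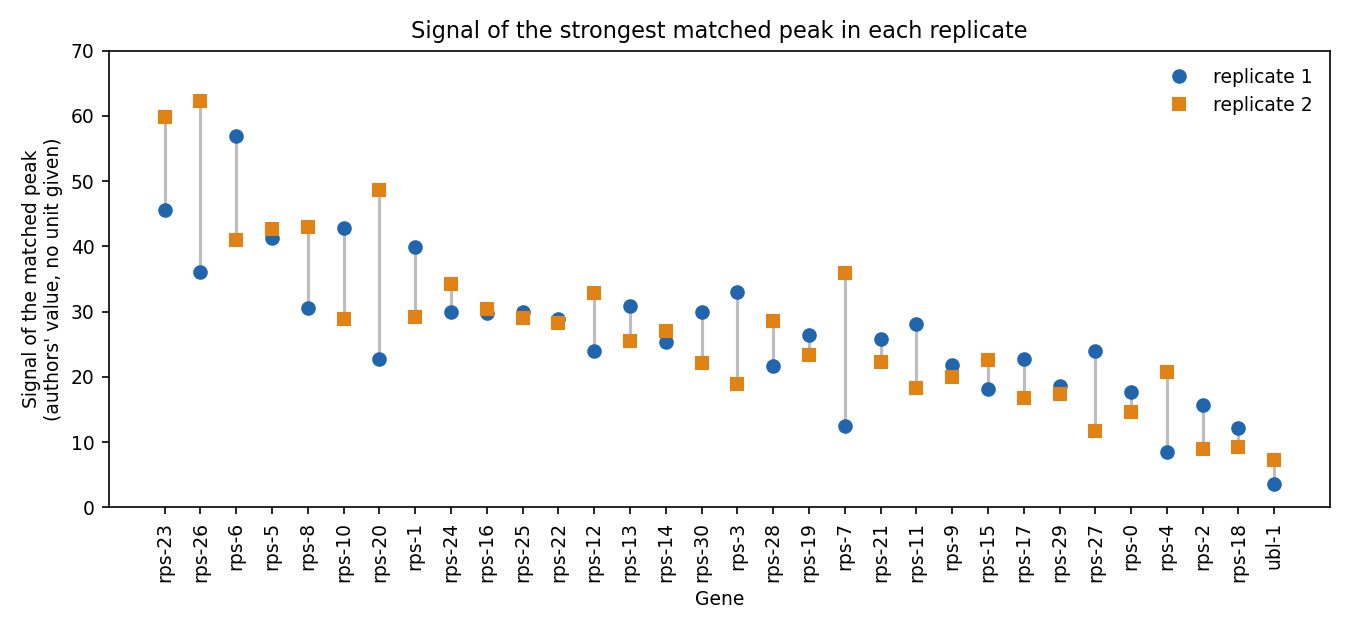
Signal of the strongest peak matched between replicates (y axis, the authors' value with no stated unit) for each of the 32 small subunit genes (x axis, sorted), with replicate 1 as blue circles, replicate 2 as orange squares and a grey line joining the pair. The values of rps-7, rps-20 and rps-26 lie far apart, and those of rps-5, rps-16 and rps-22 nearly coincide.

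A separate ranked list, of 77932 peaks matched between the replicates, gives the signal of each replicate for every peak it holds. It had a peak within 1 kb of 32 of 32 members, and the strongest had a median signal of 26.2 in each replicate. In the ranked list of replicate 1 alone, rps-18 had no summit within 1 kb, and the other 31 members had one. The value of 12.2 for rps-18 is that of the replicate 1 record matched to its pooled peak. A replicate's own ranked list can thus differ from the matched list. At ubl-1 the strongest peak in that of replicate 1 had 12.3, against 3.62 in the matched record. The strongest matched peak was higher in replicate 1 in 18 members and in replicate 2 in 14. The ratio of replicate 1 to replicate 2 had a median of 1.05 and ran from 0.347 at rps-7 to 2.04 at rps-27, and 23 members were within 1.5-fold. Over the 858 matched peaks of the pooled list the median ratio was 0.946, and over all matched peaks it was 0.813. With 1 value in each replicate, no error can be put on a single gene's ratio.

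Small RNA genes lay near called and uncalled members. A snoRNA start lay within 1 kb of the strongest ranked summit in 7 members (rps-4, rps-12, rps-13, rps-23, rps-26, rps-29 and ubl-1), and a tRNA start in 0. Of these, rps-13, rps-23 and rps-26 were called, against 11 of the 25 members with no such neighbour (44%). Leaving out summits near small RNA starts took the called members from 14 to 11 and the other genes from 2.69% to 1.90%. The median signal was 50.6 in the 7 members with a snoRNA start nearby and 50.8 in the other 25. Of the 6 members that hold a snoRNA gene within them, rps-13 and rps-23 were called. For rps-13 and rps-26 the summit lay closer to the snoRNA start than to the ribosomal protein gene's own start, and to which gene the peak belongs was not tested.

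**Figure D4:**
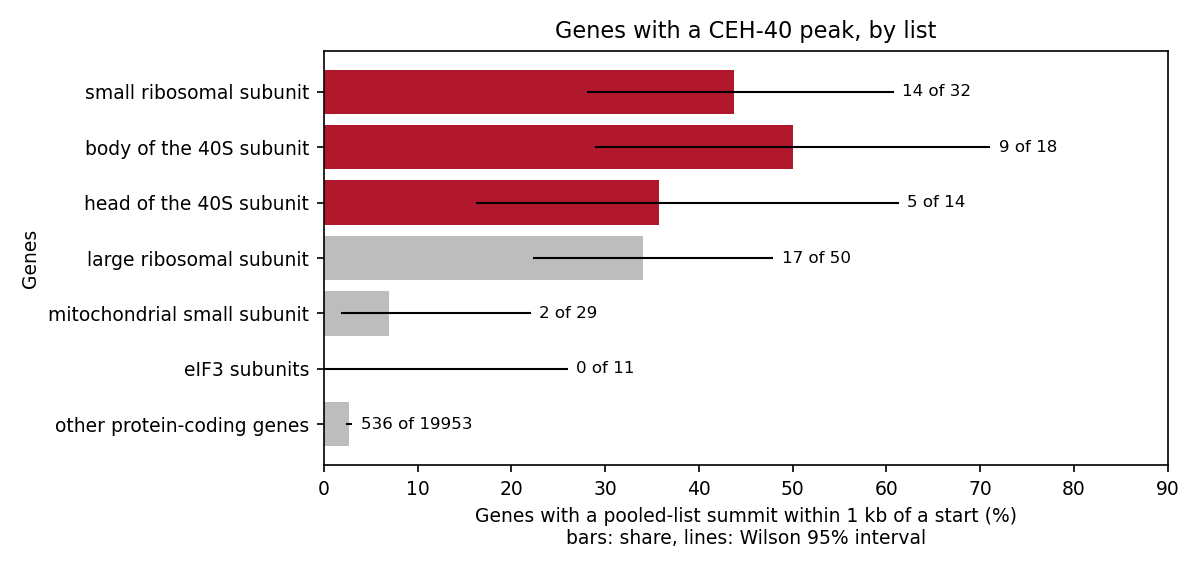
Share of genes with a pooled summit within 1 kb of a start (x axis, percent) for the small subunit, its body and its head (red) and for other lists (grey), with bars starting at 0 and lines for Wilson 95% intervals. The small subunit stands at 14 of 32 and the large subunit at 17 of 50, with overlapping intervals, against 536 of 19953 for the other protein-coding genes.

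Other lists of translation genes were set beside the small subunit. The large subunit genes, symbols starting with rpl- and rla-, were called in 17 of 50 cases (34%, 22.4% to 47.8%), with a median ranked signal of 46.9. Their interval overlapped that of the small subunit, and the difference was not tested. The peak of rps-14 lay inside rpl-36, 155 bp from its start, so it counts in both shares. By replicate, small subunit genes were called in 5 cases in replicate 1 and 7 in replicate 2, and large subunit genes in 11 cases in replicate 1 and 5 in replicate 2. Small subunit genes of the mitochondrial ribosome were called in 2 of 29 cases (6.90%), mrps-14 and mrps-35, and had a median of 29.6. Subunits of eIF3, the initiation factor that binds the 40S subunit, were called in 0 of 11 cases (Wilson upper bound 25.9%), with a median of 30.5 over the 9 with a ranked peak. The 7 protein genes of snoRNA particles had 0 calls and a median of 37.5, and rack-1, whose protein sits on the 40S head, had no call and a signal of 27.7.

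By chromosome, members were on every autosome, but most members and most calls were on I, III and IV. On chromosome I, 5 of 8 members were called, against 96 of 2870 other protein-coding genes. On III it was 3 of 10 members, against 95 of 2630 others, and on IV 5 of 10, against 107 of 3271. On V, 1 of 3 members was called, against 77 of 4991 others. The single member on II, rps-9, was uncalled, against 80 of 3448 others called there, and no member is on X, where 69 of 2731 others were called.

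Short motifs were searched on both strands. In the 200 bases around the strongest summit of the 14 called members, TTTCAG, the acceptor hexamer, was found in 6 (42.9%), against 19.9% of the 840 nuclear summits. The PBC and Hox site TGATNNAT was in 0 of 14 and 8.10% of nuclear summits, and the MEIS site TGACAG in 2 of 14 and 7.14%. The homeodomain core TAATTA was in 0 of 14 and 5% of nuclear summits. GTTCGA, found in the internal promoter of tRNA genes, was in 0 of 14 and 26.4%. GAGAGA was in 1 of 14 and 21.1%, and GCGTCTC in 0 of 14 and 3.69%. In windows of 100 bases, TTTCAG was in 2 of 14 and 7.86% of nuclear summits, and TGACAG in 0 of 14 and 4.64%. The counts of the other motifs in called members were the same as in 200 bases. TTTCAG and TGACAG share their last 3 letters, no motif holds another whole, and a window without a match says only that these letters are not in it.

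In the 250 bases upstream of the annotated 5′ end, TTTCAG was in 17 of 32 members and 42.6% of the other genes, and TGATNNAT in 3 of 32 and 20.1%. TGACAG was found there in 1 of 32 and 7.82%, TAATTA in 6 of 32 and 14.5%, and GTTCGA in 4 of 32 and 7.61%. GAGAGA was in 4 of 32 and 19.2%, and GCGTCTC in 0 of 32 and 3.87%. These upstream windows were poorer in G and C, at 30.3 ± 3.89% in members (SD, n = 32) and 33.8 ± 5.91% in the others (SD, n = 19941). The summit windows of called members had 42.9 ± 3.30% (SD, n = 14), and all nuclear summits 43.9 ± 7.02% (SD, n = 840).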

How the data were processed

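ChIP-seq peak lists from 2 biological replicates of 1 group were used. Per the labels, the build is ce11. Which aligner and caller were used is not given in the sources here. The authors deposited, for either replicate, a list before and a list after a threshold, and for both together the same with a conservative list. Each peak has a signal with no stated unit, a score (deposited values from 830 to 1000 in the thresholded lists) that follows the IDR, and a summit offset, all deposited by the authors. No read counts are given, so depth is unknown. Before any threshold there are a pooled ranked list, of 103201 peaks, and a list of 77932 peaks matched between the replicates. The matched list gives 1 signal for each replicate: 33732 records of the first matched column occur exactly in the ranked peaks of replicate 1 and 0 in those of replicate 2, and 37661 records of the second occur in those of replicate 2 and 0 in those of replicate 1.

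Genes, starts and biotypes came from Ensembl release 115 for WBcel235 and sequence from the RefSeq genome of that assembly, within whose chromosomes all peaks lay. Coordinates are 1-based. Counting of summits near starts was tested on simulated peaks. Intervals are Wilson 95% intervals. Uniqueness was counted in words of 50 bases, a length chosen here. All members are named, with full values for those called, the 5 strongest uncalled and ubl-1. Outside the set, neighbours sharing a summit are named. The members and lists were chosen with earlier results of these data known. Alternatives were other windows and lists, a limit of 0.001 on the IDR, each replicate's list alone, and, added after the data were seen, giving a summit to the nearest start only. Python 3.11.15, numpy 2.4.6, pandas 2.3.3, statsmodels 0.14.6 and matplotlib 3.10.9 were used.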

Additional observations from a re-analysis of the deposited data

How the results depend on the processing

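The 14 called members became 9 with a window of 500 bp (1.59% of other genes), 2 with 200 bp (0.722%) and 4 at an IDR of at most 0.001 (0.642%). With either replicate left out, the other's own list called 5 members in replicate 1 (0.892%) and 7 in replicate 2 (0.862%). With each summit given only to the gene of the nearest start, an alternative added with the data in view, the count was 6 (1.36%). The count was 15 within 2 kb (4.49% of other genes), 13 from the annotated 5′ end alone (2.40%) and 13 in the conservative list (2.19%). It was 15 by any overlap of the peak (2.93%) and 11 without summits near small RNA starts (1.90%).

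The median ranked signal of 50.8 was 43.8 within 500 bp (23.7 in the other genes) and 51.3 within 2 kb (31.2). For the summit nearest the start it was 31.4 (19.8). In the ranked list of replicate 1 alone it was 28.2 (15.8 in the other genes), and in that of replicate 2 alone 27.7 (16.8). The median signed position of 142 bp was -242 and 246 bp with one replicate left out. It changed sign, with 5 to 7 genes behind each value, and the cause was not tested. The sign over both replicates also depended on which rps-24 summit was counted.

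Over all 32 ranked windows, narrowing from 200 to 100 bp changed TGATNNAT from 2 to 1 and TGACAG from 3 to 1. TAATTA went from 1 to 0, GTTCGA from 4 to 1 and TTTCAG from 13 to 6. Over the 840 nuclear summits TGATNNAT fell from 8.10% to 3.10%, TGACAG from 7.14% to 4.64% and TAATTA from 5% to 1.55%. GTTCGA fell there from 26.4% to 16.9% and TTTCAG from 19.9% to 7.86%. In the 250 bp upstream of the members there were 1 TGACAG, 6 TAATTA and 0 GCGTCTC (1 in the ranked windows).

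No paired analysis was possible because there is 1 group. Signals have no unit or replicate error, and a peak between neighbouring genes cannot be given to either.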

Other observations

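A pair of words of 7 bases stood out among the upstream windows of the small subunit genes. They were picked after their counts were seen, so the shares are a description with no test. On either strand, AAAATCG was in 19 of the 32 members' 250 bases upstream of the annotated 5′ end, against 15.2% of the other protein-coding genes. CCTAAAA was in 13 of the 32, against 5.82%. Around the strongest summits of called members, each was in 2 of 14 windows of 200 bases, against 8.69% of nuclear summits for AAAATCG and 2.38% for CCTAAAA.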
